A study of Mus musculus with 96 samples.

Results

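Genomic imprinting was examined through 38 imprinted genes of the mouse, chosen by name, in 7 comparisons of embryonic stem cells (ESCs) in which the Polycomb protein RYBP or its partners were removed, altered or induced. Of these 38 genes, 37 had a row among the 37620 genes of the count tables, and Kcnq1ot1 had none under its identifier. RNA-seq counts were compared within 7 tables, each with 2 control and 2 treated libraries. Rybp-floxed ESCs of the R7.15 line (Rybp+/+) were set against the same line after 5 µM 4-hydroxytamoxifen (4-OHT) for 4 days (Rybp-/-). ESCs of the R1 line carried an empty vector (shEV), a knockdown of Rybp (shRybp) or a knockdown of Wdr5 (shWdr5). The libraries labelled WT ESC and TF-AA mutation were also R1, and neither the labels nor the methods say what TF-AA stands for or whether the mutant is a single clone. WT.RYBP and RYBP phase disruption were R7.15 cells of the genotype RYBPfl/fl Rosa26::CreERT2, both under 4-OHT, with either overexpressed wild-type RYBP or the RYBP.21aa deletion. Tet.RYBP was a J1 line with a Tet-on RYBP transgene, given vehicle or doxycycline (DOX). rTRS was a line with a DOX-induced Rybp_Stat3 integration, without DOX (NTC) or with it. The labels give serum and LIF for all of these cultures and name no feeder layer.

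Imprinted genes are expressed from the maternal or from the paternal copy only, because a stretch of DNA near them was methylated in one germ line and not in the other. This mark survives the wave of demethylation in the early embryo through the zinc finger protein ZFP57 and its cofactor TRIM28, and it sits in clusters where a long noncoding RNA and protein-coding neighbours are often used from opposite copies. Many paternally expressed genes promote growth of the embryo or placenta and many maternally expressed ones restrain it. In cultured ESCs imprints are known to be unstable, the Dlk1-Dio3 cluster above all. Polycomb complexes help to silence some clusters, and RYBP is a subunit of non-canonical Polycomb repressive complex 1 (PRC1), whose catalytic subunit is RING1B. RNA-seq counts add both alleles together, so that a loss of imprinting and a change of the active copy cannot be told apart here.

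The promoters of 6 members on which the results turn are shown, because they cover the maternally expressed RNA of the Dlk1-Dio3 cluster and its paternally expressed neighbours, and 3 further clusters. Each runs 5′ to 3′ on the strand of the gene, from 250 bases before to 50 bases after a RefSeq start site, with CpG dinucleotides, the sites of DNA methylation, in capitals. The sequences are from RefSeq on GRCm38.p6, and their mm9 positions were found by a unique exact match.
Meg3, chr12:110778956-110779255, plus strand: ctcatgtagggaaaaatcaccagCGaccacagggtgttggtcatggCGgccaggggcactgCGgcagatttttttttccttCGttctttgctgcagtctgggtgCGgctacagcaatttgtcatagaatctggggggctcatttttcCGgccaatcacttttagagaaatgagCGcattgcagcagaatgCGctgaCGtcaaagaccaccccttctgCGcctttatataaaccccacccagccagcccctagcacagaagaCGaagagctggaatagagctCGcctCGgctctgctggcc
Dlk1, chr12:110690783-110691082, plus strand: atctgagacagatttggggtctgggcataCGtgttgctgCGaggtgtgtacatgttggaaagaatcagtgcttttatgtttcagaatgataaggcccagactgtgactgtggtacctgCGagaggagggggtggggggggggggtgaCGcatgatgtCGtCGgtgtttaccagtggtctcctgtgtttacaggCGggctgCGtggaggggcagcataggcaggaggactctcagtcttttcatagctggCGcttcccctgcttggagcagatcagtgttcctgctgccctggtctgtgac
Dio3, chr12:111517190-111517489, plus strand: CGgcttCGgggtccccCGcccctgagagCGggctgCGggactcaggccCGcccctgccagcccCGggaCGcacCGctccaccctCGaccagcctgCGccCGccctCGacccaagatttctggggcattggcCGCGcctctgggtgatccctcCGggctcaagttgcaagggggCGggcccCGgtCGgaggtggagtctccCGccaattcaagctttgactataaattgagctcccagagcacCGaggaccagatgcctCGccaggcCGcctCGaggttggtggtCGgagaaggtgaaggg
Igf2r, chr17:12962523-12962822, minus strand: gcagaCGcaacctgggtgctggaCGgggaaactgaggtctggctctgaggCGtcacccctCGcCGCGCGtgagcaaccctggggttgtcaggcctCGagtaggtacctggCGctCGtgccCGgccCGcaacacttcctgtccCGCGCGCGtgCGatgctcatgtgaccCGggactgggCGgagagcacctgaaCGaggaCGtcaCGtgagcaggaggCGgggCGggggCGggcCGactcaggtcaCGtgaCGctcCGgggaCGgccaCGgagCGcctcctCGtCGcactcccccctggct
Peg3, chr7:6683081-6683380, minus strand: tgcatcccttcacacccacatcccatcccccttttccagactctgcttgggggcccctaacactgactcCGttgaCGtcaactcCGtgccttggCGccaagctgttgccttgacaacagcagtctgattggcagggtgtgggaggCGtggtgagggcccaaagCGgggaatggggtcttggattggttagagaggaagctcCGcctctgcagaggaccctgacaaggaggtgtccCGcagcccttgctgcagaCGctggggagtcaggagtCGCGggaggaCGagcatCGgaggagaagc
Ndn, chr7:69492913-69493212, plus strand: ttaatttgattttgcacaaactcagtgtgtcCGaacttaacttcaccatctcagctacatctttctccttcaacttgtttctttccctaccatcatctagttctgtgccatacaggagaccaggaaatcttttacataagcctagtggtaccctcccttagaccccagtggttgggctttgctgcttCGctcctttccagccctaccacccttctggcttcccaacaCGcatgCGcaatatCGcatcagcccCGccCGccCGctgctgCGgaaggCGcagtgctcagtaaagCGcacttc

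Igf2r held 34 CpGs in its 300 bases, and 7.73% of 32851 RefSeq promoters of this length held as many or more. Dio3 held 25 CpGs, Meg3 and Peg3 13 each, Ndn 11 and Dlk1 9, against a median of 7 over all promoters. The hexamer TGCCGC, the core of the ZFP57 motif, read on both strands, was found once in the Meg3 window and was not among the letters of the other 5. It occurred in 11.6% of all promoters. Of the 33 members with a sequence, 10 held it in at least 1 promoter. This count is per gene and cannot be set against the share per promoter, since some members have several promoters. H19, Peg10, Sgce, Impact and Rtl1 are named only.

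The libraries held between 14512857 and 81049618 counts on genes. Replicates are numbered in the labels without saying whether they are separate cultures, so the p-values measure only the spread between these libraries, which may be technical. Values per library are counts per 1000000 (CPM) after TMM scaling, a gene was called at an adjusted p under 0.05 in edgeR's quasi-likelihood test, and SE is the standard error of a log2 fold change. Rybp fell from 110 and 110 CPM in Rybp+/+ to 24.8 and 25.0 in Rybp-/-, and from 85.7 and 86.4 in shEV to 35.8 and 36.6 in shRybp. Wdr5 fell from 350 and 343 CPM to 60.0 and 58.2 in shWdr5. DOX raised Rybp from 135 and 145 CPM to 522 and 535 in Tet.RYBP, but in the libraries labelled rTRS DOX it stood at 102 and 99.8 CPM against 113 and 110. Of Rybp, Wdr5 and Stat3, 1 was called higher in rTRS DOX and 1 lower, and 0 changed by at least 2-fold. The ESC markers Pou5f1, Sox2, Nanog, Zfp42, Esrrb, Klf4, Tdgf1 and Dppa5a summed to between 3562 and 7561 CPM in every library. Of these 8, 6 were called lower and 0 higher in rTRS DOX, where 20.4% of all genes were lower. In shWdr5 5 were lower and 2 higher (31.5% of all genes each way), the sum going from 6981 and 7109 to 5871 and 5908 CPM. Higher and lower numbered 5 and 2 in Rybp-/-, 4 and 3 in shRybp, 2 and 1 with TF-AA, 1 and 2 with phase disruption and 1 and 0 in Tet.RYBP. The column names of the Tet.RYBP and phase disruption tables (NTC and WT for the controls) differ from the sample labels, as does the column taken for rTRS DOX 2, which bears another line name, and these groups rest on matching them.

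Between 5 and 25 of the imprinted genes were called in each comparison, and in every one they moved in both directions. In Rybp-/- against Rybp+/+, 17 of 37 tested members rose and 6 fell, where 22.8% of all genes tested rose and 22.7% fell. In shRybp against shEV, 15 of 33 rose and 9 fell, beside 26.8% and 26.0% of all genes. In shWdr5, against the same shEV libraries, 10 of 31 rose and 14 fell, beside 31.5% and 31.5%. The TF-AA mutation raised 8 of 34 and lowered 12, beside 14.4% and 16.1%. It raised 4 and lowered 11 by DESeq2, 12 and 12 with library totals alone, 12 and 13 with the replicate block, and 10 and 10 with the stricter filter on low counts. Over all genes these 4 settings called 2903, 4488, 5525 and 4278, against 4412 in the main fit. The shares of higher among them were 41.1%, 54.8%, 47.6% and 47.5%, against 47.3%. RYBP phase disruption raised 15 of 35 and lowered 10, beside 16.1% and 17.0%. With DESeq2 it raised 9 and lowered 9, while all called genes went from 4814 to 2659 and the share of higher among them from 48.7% to 42.4%. In the libraries labelled rTRS DOX, 16 of 33 were higher and 3 lower, beside 23.0% and 20.4%. With the replicate block these were 16 and 6, while all called genes went from 7070 to 8559 and the share of higher among them from 52.9% to 52.2%. Overexpression of RYBP in Tet.RYBP changed the fewest, with 3 of 33 higher and 2 lower, beside 3.63% and 2.39%. The shares of members that rose were 45.9% in Rybp-/- and 45.5% in shRybp. Called changes of at least 2-fold numbered 4 of 37 in Rybp-/-, beside 7.84% of all genes, 10 of 33 in shRybp (12.6%), 5 of 31 in shWdr5 (18.6%) and 10 of 34 with TF-AA (8.14%). They numbered 6 of 35 with phase disruption (6.77% of all genes), 1 of 33 in Tet.RYBP (0.904%) and 10 of 33 in rTRS DOX (12.0%).

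The median log2 fold change of the members was 0.24 in Rybp-/-, 0.27 in shRybp, -0.17 in shWdr5, 0.04 with TF-AA, 0.16 with phase disruption, 0.00 in Tet.RYBP and 0.26 in rTRS DOX, where that of all genes lay between -0.01 and 0.02. With scaling by library totals alone, chosen after seeing the data, the median of all genes in shRybp was 0.18 and that of the members 0.43. The share of higher among all called genes then went from 50.8% to 71.2% in shRybp, with 17 members higher and 5 lower, and from 48.7% to 61.7% with phase disruption, with 16 higher and 9 lower. Over the 7 comparisons 36 of the 38 genes were called at least once, 12 always higher, 5 always lower and 19 in both directions. Asb4, a maternally expressed ankyrin repeat gene, was tested in 5 comparisons and called in none. Igf2 and Igf2r were each called higher in 6 comparisons and lower in none, and Snrpn was called lower in 5 and higher in none.

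**Figure D1:**
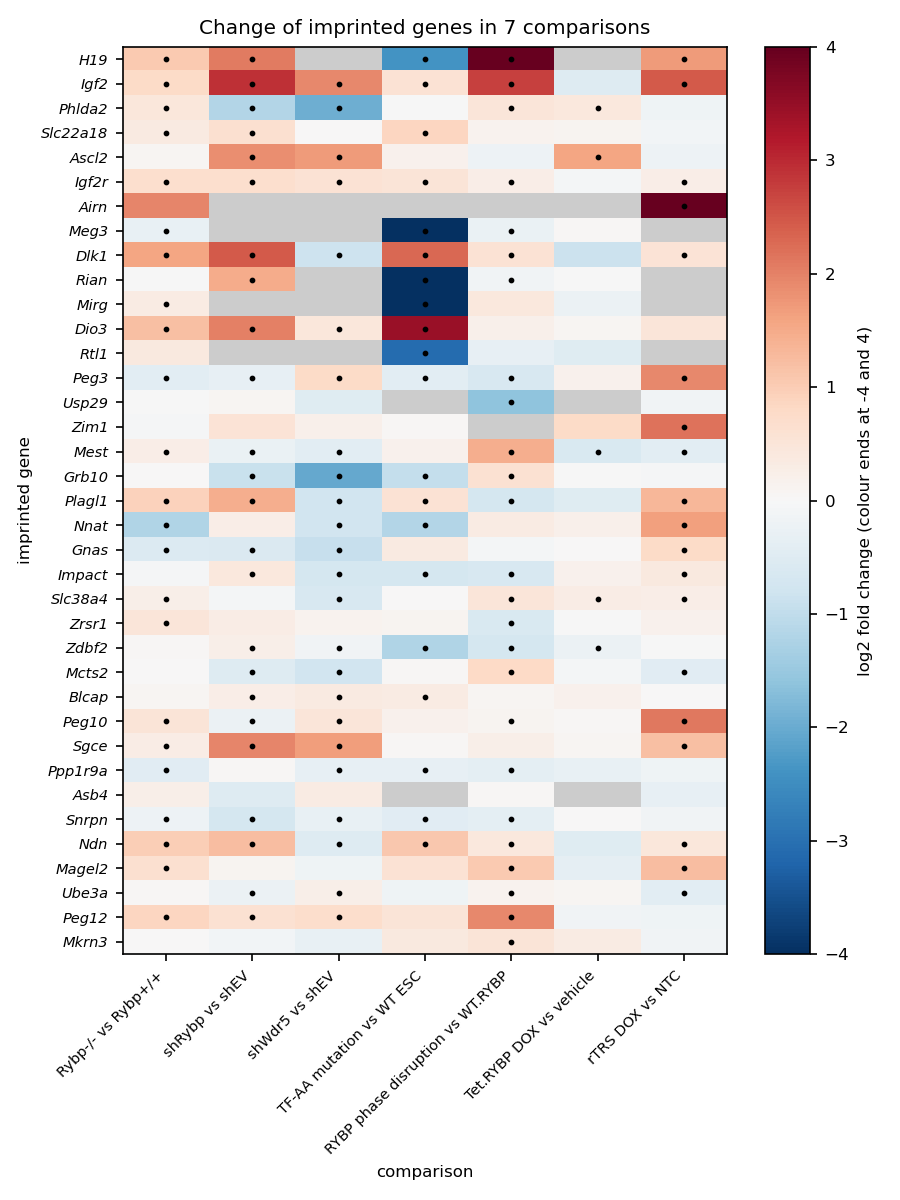
Heat map of the log2 fold change (treated against control, colour) of 37 imprinted genes (rows) in 7 comparisons (columns), with colours ending at 4 in either direction, a dot where the adjusted p was under 0.05 and grey where a gene was not tested. Igf2 and Igf2r are red with a dot in 6 columns each, Meg3, Rian and Mirg are darkest blue with TF-AA, and the Tet.RYBP column holds 5 dots.

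The control groups themselves differed in their imprinted genes. They are not all untreated cells, since shEV carries the empty vector and WT.RYBP overexpressed wild-type RYBP under 4-OHT. Levels were compared per length as reads per kilobase per 1000000 gene counts (RPKM), without a test, since the 6 control groups come from tables counted separately and line, table and laboratory handling cannot be told apart. Of the 37 genes, 17 were at 1 RPKM or more on average in all 6 control groups, 5 varied less than 2-fold between the highest and lowest group, 21 varied 2- to 10-fold and 6 more than 10-fold, and 5 had too few counts somewhere for a ratio. The steadiest was Snrpn, which encodes a small nuclear ribonucleoprotein and was among the 5 highest members in every control group, at 61.2 and 65.1 RPKM in rTRS NTC up to 89.9 and 94.5 in WT.RYBP. Igf2r, the receptor that clears IGF2, ranged only from 11.2 and 11.3 RPKM in shEV to 17.8 and 18.0 in WT.RYBP. Mkrn3, Mcts2 and Blcap made up the other members under 2-fold.

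Peg10, a retrotransposon-derived gene needed for the placenta, was among the 5 highest in all 6 groups, at 30.0 and 31.8 RPKM in shEV and 138 and 154 in rTRS NTC. Phlda2, a maternally expressed brake on placental growth, was among the 5 highest in all but Tet.RYBP vehicle, where it stood at 25.2 and 26.5 RPKM against 84.1 and 90.9 in Rybp+/+. Impact, Slc38a4, Grb10, Peg3 and Rian completed the highest 5 in one group or another. At the low end Airn was among the 5 lowest in all 6 groups, with 0 counts in both WT ESC and both Tet.RYBP vehicle libraries. Rtl1, Asb4, Zim1, Usp29, Magel2, Peg12, Mirg, Meg3, Rian and H19 were among the 5 lowest in at least 1 group.

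The widest differences lay in the maternally expressed RNAs of the Dlk1-Dio3 cluster. Meg3 stood at 4.33 and 4.43 RPKM in Rybp+/+, 6.00 and 6.16 in WT.RYBP, 1.85 and 1.97 in WT ESC and 7.67 and 7.69 in Tet.RYBP vehicle, but had only 5 and 1 counts in shEV and 3 and 1 in rTRS NTC. Rian and Mirg followed the same division, with Rian at 9.83 to 42.1 RPKM in the 4 groups with Meg3 and at 0.0118 to 0.0585 in shEV and rTRS NTC, and Mirg without a count in both shEV and both rTRS NTC libraries. So the WT ESC and shEV libraries, both labelled R1, lay on opposite sides of this division. Dio3, on the paternal side of the same cluster, was highest in shEV, at 5.95 and 6.92 RPKM, and lowest in rTRS NTC, at 0.110 and 0.219.

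H19, a maternally expressed noncoding RNA, stood at 19.5 and 20.9 RPKM in Rybp+/+ and 5.29 and 5.54 in WT.RYBP, and at no more than 0.302 in the other 8 control libraries. Peg3, a paternally expressed zinc finger gene, was also highest in these R7.15 cells, at 34.4 to 40.8 RPKM against 1.71 to 4.67 elsewhere. Nnat, a paternally expressed proteolipid, ranged from 0.271 and 0.594 RPKM in Tet.RYBP vehicle to 8.36 and 8.55 in Rybp+/+. Fibroblast markers (Col1a1, Col1a2, Col3a1, Thy1, Postn and Lum) were higher in the R7.15 cells too, summing to 421 and 428 CPM in WT.RYBP and to 56.2 and 56.8 in Rybp+/+, against 7.70 to 24.2 in the other controls, where Lum was at 0. Their part in the levels of H19, Peg3 and Nnat was not tested. In bulk RNA, fewer cells of a type and less RNA per cell cannot be told apart.

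**Figure D2:**
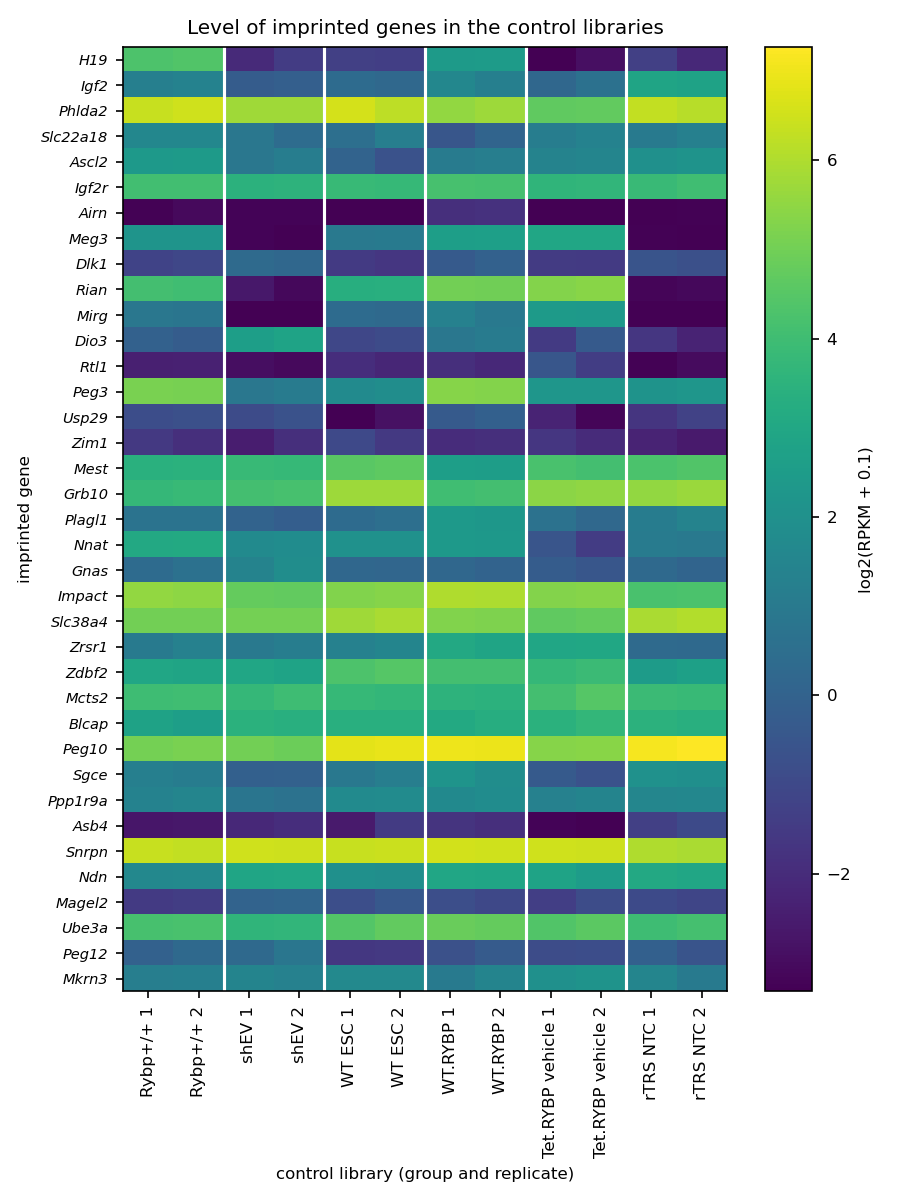
Heat map of log2(RPKM + 0.1) (colour) of 37 imprinted genes (rows) in the 12 control libraries (columns, with white lines between groups). Meg3, Rian and Mirg are dark in both shEV and both rTRS NTC libraries and bright in the other 8, while Snrpn and Igf2r keep nearly the same colour across the row.

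At the H19/Igf2 cluster on distal chromosome 7, the growth factor gene Igf2 (chr7:149836673-149852721, minus strand, mm9) is paternally expressed and the noncoding RNA H19 (chr7:149761434-149764048, minus strand) maternally expressed, and both compete for the same enhancers. Both rose in 4 comparisons. H19 changed most with RYBP phase disruption, where it went from 12.8 and 13.4 CPM to 259 and 254. This is a 19.6-fold rise (log2 fold change 4.29 ± 0.07 SE, adjusted p = 1.94e-31), and the groups did not overlap. Igf2 went from 16.0 and 12.8 to 96.3 and 96.9 CPM in the same libraries (2.75 ± 0.09 SE, adjusted p = 5.97e-23). The fibroblast marker sum moved the other way there, from 421 and 428 to 341 and 364 CPM, with 3 of the 6 markers called lower and none higher. Markers of the primitive endoderm (Gata4, Gata6, Sox17, Sox7 and Dab2) went in sum from 17.2 and 13.8 to 21.1 and 19.2 CPM, with Gata4 called higher of 4 tested. Of the trophectoderm, the first placental lineage, Cdx2 was called higher of 3 markers tested, while the sum went from 17.1 and 13.5 to 16.0 and 15.2 CPM. The part of these lists was not tested.

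In Rybp-/-, H19 rose from 46.7 and 50.0 CPM to 97.8 and 101 (1.04 ± 0.04 SE, adjusted p = 4.4e-19), and Igf2 rose from 12.5 and 13.8 to 20.8 and 23.4 (0.75 ± 0.08 SE, adjusted p = 1.29e-09). Both treated libraries lay above both controls for either gene. The fibroblast markers rose as well, from 56.2 and 56.8 CPM in sum to 113.0 and 119.3, 5 of 6 being called. Those of the primitive endoderm went from 6.98 and 7.75 to 12.6 and 11.6 CPM in sum, with Gata4 and Dab2 called higher. Of the trophectoderm markers, Cdx2, Elf5 and Gata3 were called higher and Eomes was not, the 4 going from 4.41 and 4.09 to 5.39 and 5.29 CPM in sum. The part of these lists in the changes was not tested. In shRybp, Igf2 rose 7.65-fold, from 4.37 and 4.78 to 36.6 and 33.4 CPM (2.94 ± 0.10 SE, adjusted p = 1.18e-13), the largest change of a member in that comparison. H19 was low in this line and rose from 14 and 25 counts to 121 and 96 (2.07 ± 0.38 SE, adjusted p = 0.000137). Here the fibroblast sum went from 18.6 and 18.8 to 31.9 and 30.7 CPM. The primitive endoderm markers went from 15.8 and 18.9 to 27.7 and 28.6 CPM in sum, with 4 called higher and Sox7 lower, and the part of either list was not tested.

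In shWdr5, Igf2 rose from 4.12 and 4.71 to 15.9 and 17.3 CPM (1.92 ± 0.13 SE, adjusted p = 1.25e-11), without overlap, while H19 had 4 and 2 counts against 9 and 14 in shEV and was not tested. The primitive endoderm sum went from 15.4 and 18.1 to 33.9 and 33.4 CPM there, with Gata4, Gata6 and Sox17 called higher and Sox7 lower, while the fibroblast sum went from 18.0 and 18.3 to 15.3 and 15.7 CPM, and their part was not tested. In the libraries labelled rTRS DOX, Igf2 stood at 212 and 205 CPM against 39.6 and 36.8 in NTC (2.45 ± 0.07 SE, adjusted p = 6.95e-11). H19 stood at 1.43 and 1.94 against 0.724 and 0.316 CPM (1.70 ± 0.46 SE, adjusted p = 0.00941). With the TF-AA mutation the pair went opposite ways, H19 from 15 and 14 counts to 3 and 2 (-2.40 ± 0.70 SE, adjusted p = 0.0108) and Igf2 from 6.59 and 6.08 to 10.5 and 8.33 CPM (0.57 ± 0.17 SE, adjusted p = 0.0139). Neither call was firm, since that of H19 was lost with DESeq2 and without any 1 of the 4 libraries (adjusted p from 0.0511 to 0.137), and that of Igf2 with DESeq2 and without TF-AA mutation 1 (0.129 and 0.261). In Tet.RYBP, Igf2 stood at 5.81 and 7.97 CPM with vehicle and 4.96 and 4.62 with DOX (-0.52 ± 0.21 SE, adjusted p = 0.142), and H19 had at most 3 counts in a library.

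**Figure D3:**
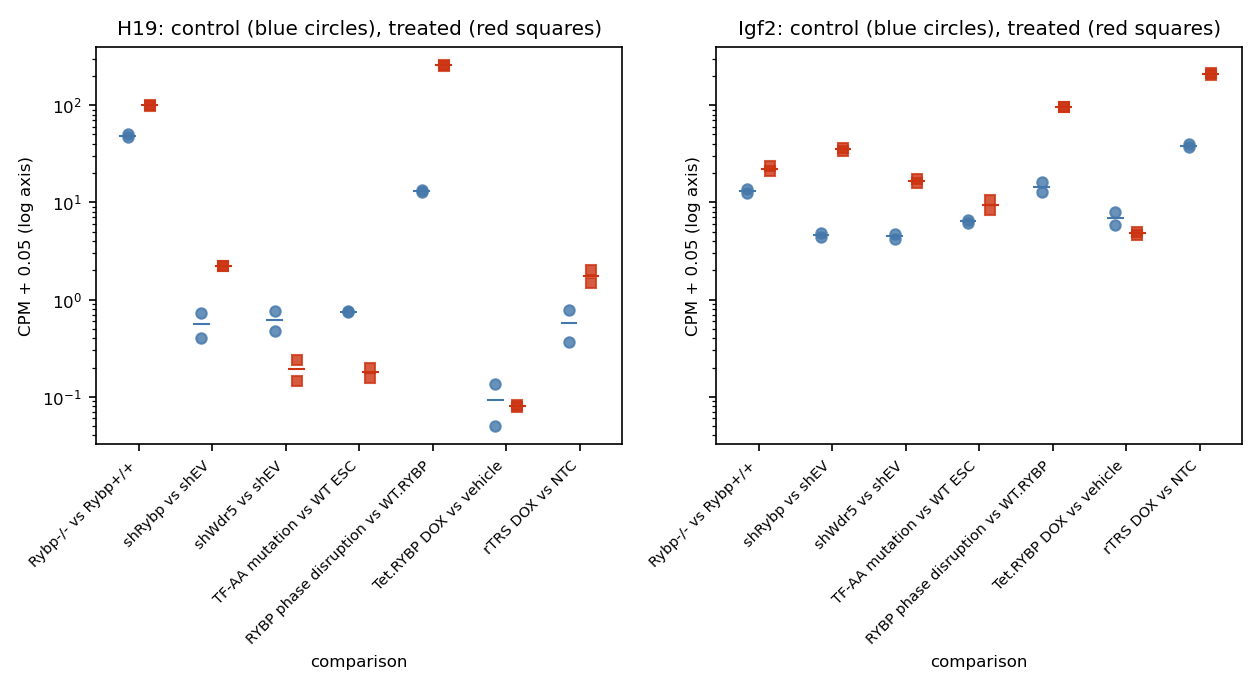
CPM + 0.05 on a log axis of H19 (left) and Igf2 (right) in each library of the 7 comparisons, with controls as blue circles, treated libraries as red squares and the group mean as a bar. For Igf2 the squares lie above the circles in 6 comparisons and below them only in Tet.RYBP, and H19 reaches 259 and 254 CPM with phase disruption from 12.8 and 13.4.

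The neighbouring Kcnq1 cluster holds the maternally expressed Phlda2, Slc22a18 and Ascl2, and Kcnq1ot1, the noncoding RNA that silences them on the paternal copy, for which no value was obtained. Phlda2 fell from 42.9 and 43.5 to 19.4 and 18.6 CPM in shRybp (-1.19 ± 0.08 SE, adjusted p = 2.65e-10). It fell further in shWdr5, from 40.7 and 41.3 to 10.0 and 10.9 CPM (-1.97 ± 0.09 SE, adjusted p = 6.38e-15). These comparisons share the shEV libraries, counted at about 50.9% and 50.6% of the depth in the second table. In Rybp-/- Phlda2 rose instead, from 64.3 and 69.3 to 90.2 and 91.1 CPM (0.44 ± 0.04 SE), and it rose with phase disruption, from 36.2 and 40.6 to 53.4 and 54.4 (0.49 ± 0.08 SE). In all 4 comparisons its groups were apart.

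Ascl2, a transcription factor of the trophoblast, rose from 2.93 and 3.64 to 11.8 and 12.2 CPM in shRybp (1.87 ± 0.15 SE, adjusted p = 5.35e-09) and from 2.81 and 3.44 to 9.16 and 11.0 in shWdr5 (1.69 ± 0.17 SE, adjusted p = 6.93e-09). The trophectoderm markers went from 16.1 and 18.6 to 22.3 and 24.0 CPM in sum in shRybp, with Cdx2 and Gata3 called higher and Eomes lower, and from 15.5 and 17.6 to 17.2 and 19.1 in shWdr5, with Gata3 called higher and Eomes lower, and their part was not tested. Ascl2 was also the one member changed more than 2-fold by RYBP overexpression in Tet.RYBP, from 4.10 and 4.37 CPM with vehicle to 10.8 and 14.6 with DOX (1.59 ± 0.18 SE, adjusted p = 2.71e-07), so that it was higher both with less and with more Rybp. In Rybp-/- it stood at 9.61 and 8.38 CPM against 8.23 and 8.79 (0.08 ± 0.10 SE, adjusted p = 0.57). Phlda2 also rose in Tet.RYBP, from 19.0 and 20.0 to 27.2 and 25.0 CPM (0.42 ± 0.11 SE, adjusted p = 0.0179), a call lost without either DOX library (0.0584 and 0.27). Slc22a18, an organic cation transporter gene, was called higher in Rybp-/-, shRybp and TF-AA by 0.35 to 0.85 on the log2 scale, and each of these calls was lost with DESeq2 and without Rybp+/+ 2, Rybp-/- 1, shEV 2, shRybp 2 or WT ESC 1 in its comparison (adjusted p from 0.0621 to 0.212).

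The Dlk1-Dio3 cluster on chromosome 12 carries the paternally expressed protein-coding genes Dlk1, Rtl1 and Dio3 and the maternally expressed noncoding RNAs Meg3 (also known as Gtl2), Rian and Mirg, which contain small nucleolar RNAs and microRNAs. With the TF-AA mutation the 3 maternal RNAs and Rtl1 were lower and Dlk1 and Dio3 higher. Meg3 (chr12:110779211-110809936, plus strand, mm9) had 33.7 and 36.3 CPM in WT ESC, 1441 counts together, and 0 counts in both TF-AA libraries. Measured against a floor of 3 counts over the group, it was at least 453-fold lower (adjusted p = 1.31e-16). Mirg went from 3.82 and 3.66 CPM, 154 counts together, to 0 counts in both, at least 48.4-fold lower (adjusted p = 8.45e-09). Rian went from 81.4 and 85.6 CPM to 0.149 and 0.320 (-8.46 ± 0.20 SE, adjusted p = 1.05e-19). So all 3 maternal RNAs were at or near 0 in both mutant libraries.

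On the paternal side, Dio3, which encodes the deiodinase that inactivates thyroid hormone, rose 11.0-fold with TF-AA, from 0.764 and 0.889 to 8.35 and 10.0 CPM (3.46 ± 0.26 SE, adjusted p = 3.53e-10). Dlk1 (chr12:110691033-110701546, plus strand), a transmembrane regulator of growth and adipogenesis, rose from 1.43 and 1.28 to 7.06 and 6.24 CPM (2.29 ± 0.25 SE, adjusted p = 1.66e-07). Neither gene's groups overlapped. Rtl1, a retrotransposon-like gene of the placenta, went the other way, from 22 and 16 counts to 0 and 4 (-3.08 ± 0.76 SE, adjusted p = 0.0032), a call lost without TF-AA mutation 1 (0.104). Rtl1 shares its exons with microRNAs of the opposite, maternally expressed strand, and Meg3 shares part of its exons with an antisense gene. The counting is not stated to use strand, so such reads cannot be told apart. The fibroblast marker sum was 11.7 and 11.0 CPM in WT ESC and 24.0 and 24.7 in TF-AA, with Col3a1 and Lum at 0 in all 4 libraries and Col1a1, Col1a2 and Thy1 called higher. The primitive endoderm sum was 10.1 and 9.63 CPM in WT ESC and 18.0 and 18.9 in TF-AA, with Sox7 and Dab2 called higher of 3 tested, and the part of either list in these changes was not tested.

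Dlk1 and Dio3 also rose in shRybp and in Rybp-/-. In shRybp, Dlk1 rose from 7.03 and 6.39 to 34.5 and 39.0 CPM (2.45 ± 0.10 SE, adjusted p = 6.92e-13) and Dio3 from 12.7 and 14.9 to 51.3 and 61.0 (2.02 ± 0.10 SE, adjusted p = 3.92e-12). Meg3 had 18 and 7 counts there against 5 and 1 in shEV, and Mirg 1 and 1 against 0 and 0, too few to test. Rian went from 20 and 5 counts to 58 and 35 (1.49 ± 0.58 SE, adjusted p = 0.0378), a call lost with DESeq2 and without shEV 2, shRybp 1 or shRybp 2 (0.085 to 0.258). These maternal RNAs were thus near 0 in both shEV and shRybp.

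In Rybp-/-, where Meg3 was well expressed, it fell from 79.1 and 80.8 to 64.0 and 66.3 CPM (-0.30 ± 0.04 SE, adjusted p = 8.22e-07), while Rian stood at 139 and 137 against 142 and 135 (-0.00 ± 0.04 SE). Dlk1 rose from 1.96 and 2.12 to 6.65 and 5.68 CPM (1.59 ± 0.15 SE, adjusted p = 2.3e-10) and Dio3 from 1.82 and 1.53 to 3.96 and 3.77 (1.21 ± 0.18 SE, adjusted p = 1.39e-06). Dlk1 was the member with the largest called change in the knockout, and its groups did not overlap. Mirg rose slightly (0.32 ± 0.12 SE, adjusted p = 0.0288), a call lost with DESeq2 and without Rybp+/+ 2 or Rybp-/- 2 (up to 0.24). With phase disruption Meg3 fell from 111 and 114 to 97.1 and 88.7 CPM (-0.27 ± 0.06 SE, adjusted p = 0.000523), and Dlk1 stood at 7.06 and 6.52 against 4.09 and 4.99 CPM (0.58 ± 0.20 SE, adjusted p = 0.0275), a call lost in 5 alternatives, among them without WT.RYBP 1 or without either phase disruption library (up to 0.235).

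In shWdr5 the direction of Dlk1 turned, from 6.69 and 5.97 to 3.46 and 3.70 CPM (-0.82 ± 0.17 SE, adjusted p = 0.000259), while Dio3 rose from 12.1 and 14.0 to 17.6 and 18.1 (0.46 ± 0.10 SE, adjusted p = 0.000546). In the libraries labelled rTRS DOX, Dlk1 stood at 4.62 and 4.28 against 3.29 and 2.83 CPM (0.54 ± 0.20 SE, adjusted p = 0.0454), a call lost in 5 alternatives, among them without rTRS NTC 2, rTRS DOX 1 or rTRS DOX 2 (0.0513 to 0.185). Meg3 had 3 and 1 counts in NTC and none with DOX. In Tet.RYBP none of the 6 genes was called, and Meg3 stood at 139 and 147 CPM with DOX against 138 and 138 (0.05 ± 0.06 SE).

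**Figure D4:**
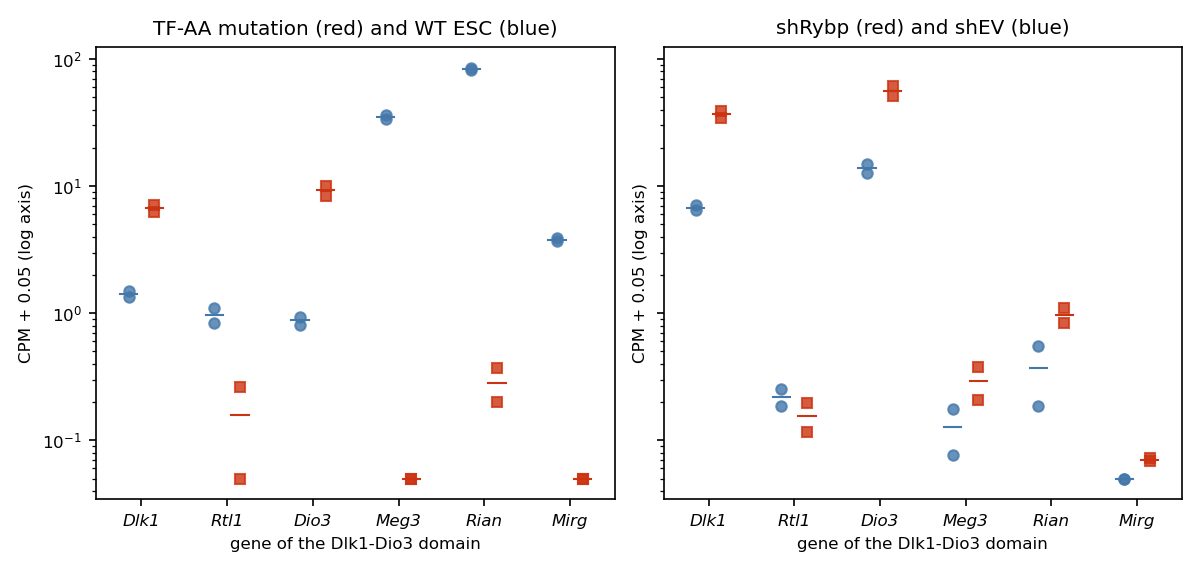
CPM + 0.05 on a log axis of the 6 genes of the Dlk1-Dio3 cluster in the TF-AA comparison (left) and the shRybp comparison (right), with control libraries as blue circles, treated libraries as red squares and the group mean as a bar. With TF-AA the squares of Meg3 and Mirg lie at the bottom of the axis (0 CPM) and those of Dlk1 and Dio3 above the circles, whereas in R1 cells with shEV the maternal RNAs start near the bottom.

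At the Igf2r cluster on chromosome 17 the maternally expressed Igf2r (chr17:12875272-12962530, minus strand, mm9) overlaps the paternally expressed noncoding RNA Airn on the opposite strand, whose transcription silences Igf2r in cis in most tissues. Igf2r rose in 6 of the 7 comparisons, by 0.26 to 0.67 on the log2 scale. It went from 160 and 159 to 250 and 257 CPM in Rybp-/- (0.67 ± 0.03 SE, adjusted p = 2.36e-17) and from 112 and 113 to 173 and 186 in shRybp (0.67 ± 0.05 SE, adjusted p = 3.74e-09). The difference between these responses was 0.02 on the log2 scale (± 0.06 SE, adjusted p = 0.804). It rose from 105 and 107 to 156 and 160 CPM in shWdr5 (0.58 ± 0.05 SE), from 132 and 129 to 190 and 186 with TF-AA (0.53 ± 0.08 SE), and from 173 and 171 to 207 and 207 with phase disruption (0.26 ± 0.05 SE). In each of these the treated libraries were above the controls. In the libraries labelled rTRS DOX it stood at 173 and 175 against 139 and 152 CPM (0.26 ± 0.07 SE, adjusted p = 0.00626), a call lost without rTRS NTC 1 (0.088). In Tet.RYBP it stood at 113 and 111 CPM with DOX and at 114.9 and 118.5 with vehicle (-0.06 ± 0.06 SE, adjusted p = 0.666).

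Airn was barely detected and was tested in 2 comparisons. It had 0 and 1 counts in rTRS NTC and 24 and 17 in the libraries labelled rTRS DOX, a ratio of 41.8 with an exact 95% interval for counting error of 7.09 to 1690 (edgeR adjusted p = 0.00321). In Rybp-/- it had 11 and 16 counts against 1 and 6 (adjusted p = 0.073). Both genes were thus higher with rTRS DOX.

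The Peg3 cluster on proximal chromosome 7 holds the paternally expressed Peg3 and Usp29 and the maternally expressed Zim1. Peg3 (chr7:6656603-6683132, minus strand, mm9) rose most in the libraries labelled rTRS DOX, to 220 and 228 CPM from 56.5 and 61.9 (1.92 ± 0.07 SE, adjusted p = 6.55e-10). Zim1 rose there as well, from 20 and 14 to 87 and 65 counts (2.17 ± 0.47 SE, adjusted p = 0.00226). So both parental sides of the cluster were higher, and neither gene's groups overlapped. In shWdr5, Peg3 rose from 22.9 and 26.9 to 42.9 and 42.3 CPM (0.78 ± 0.08 SE), while Zim1 had 14 and 12 against 9 and 13 counts (0.20 ± 0.48 SE).

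Peg3 fell in 4 comparisons. It went from 476 and 461 to 341 and 353 CPM in Rybp-/- (-0.43 ± 0.03 SE, adjusted p = 2.06e-13) and from 553 and 531 to 346 and 344 with phase disruption (-0.65 ± 0.04 SE, adjusted p = 4.76e-14). Both groups were apart in these high-expressing R7.15 cells. In shRybp it stood at 22.4 and 19.8 against 24.1 and 28.5 CPM (-0.32 ± 0.10 SE, adjusted p = 0.00954), a call lost without shEV 2 or shRybp 2 and with library totals alone (0.099 to 0.179), and with TF-AA it went from 44.1 and 48.6 to 35.5 and 33.1 (-0.43 ± 0.10 SE). Zim1 had 52 and 60 counts in Rybp-/- against 70 and 49 in Rybp+/+ (adjusted p = 0.955), 15 and 51 in shRybp against 12 and 24 in shEV (0.51) and 15 and 32 with TF-AA against 31 and 18 in WT ESC (0.96). With phase disruption Zim1 had 12 and 9 counts against 9 and 10 in WT.RYBP and was not tested. Usp29, a ubiquitin protease gene annotated in mm9 as a single piece of 2610 bases, fell with phase disruption from 1.89 and 2.25 to 0.679 and 0.672 CPM (-1.60 ± 0.43 SE, adjusted p = 0.00401), a call lost with DESeq2 and without WT.RYBP 2 (0.0733 and 0.0628).

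On proximal chromosome 6, Peg10 and Sgce share a promoter region and run away from each other, both from the paternal copy, beside the maternally expressed Ppp1r9a and Asb4. Peg10 (chr6:4697306-4710514, plus strand, mm9) was the most abundant member in rTRS NTC and rose in the libraries labelled rTRS DOX from 932 and 1029 to 3994 and 4421 CPM (4.29-fold, with an SE of 0.06 on the log2 scale, adjusted p = 7.69e-11). Sgce, which encodes epsilon-sarcoglycan of the muscle membrane, rose from 12.6 and 11.8 to 26.9 and 29.3 CPM (1.20 ± 0.11 SE, adjusted p = 1.55e-06). Sgce also rose from 2.78 and 2.91 to 9.97 and 12.3 CPM in shRybp (1.96 ± 0.16 SE, adjusted p = 7.85e-09) and from 2.62 and 2.73 to 9.49 and 7.44 in shWdr5 (1.66 ± 0.18 SE, adjusted p = 3.44e-08). Peg10 stood at 195 and 178 against 224 and 212 CPM in shRybp (-0.22 ± 0.05 SE, adjusted p = 0.00145), a call lost without shRybp 2 and with library totals alone (0.0567 and 0.323).

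Peg10 rose from 209 and 199 to 292 and 278 CPM in shWdr5 (0.48 ± 0.05 SE) and from 225 and 236 to 331 and 330 in Rybp-/- (0.52 ± 0.03 SE), again without overlap. In Rybp-/- Sgce rose by 0.30 (± 0.11 SE, adjusted p = 0.023), a call lost with DESeq2 and without Rybp+/+ 2 or Rybp-/- 1 (up to 0.192). Ppp1r9a, a neuronal actin-binding protein gene, was called lower in Rybp-/-, shWdr5, TF-AA and phase disruption by 0.33 to 0.44 on the log2 scale, of which the TF-AA call was lost without either mutant library (adjusted p = 0.0697 and 0.131) and the shWdr5 call with DESeq2 (0.0623). The rTRS change came with markers of the trophectoderm. Cdx2, Eomes, Elf5 and Gata3 summed to 12.3 and 10.3 CPM in NTC and 49.3 and 43.0 in rTRS DOX, 3 of them being called higher, while the ESC markers went from 6152 and 5919 to 3752 and 3562 CPM. The primitive endoderm sum went from 8.57 and 6.87 to 20.4 and 19.5 CPM, with Dab2 called higher and Sox7 lower. The median log2 fold change of these 5 markers was -0.50, so the sum and the typical marker went opposite ways. The part of these lists in the rTRS values of Peg10, Peg3, Igf2 and Airn was not tested.

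The cluster of the Prader-Willi and Angelman region on chromosome 7 holds the paternally expressed Snrpn, Ndn, Magel2, Peg12 and Mkrn3 and Ube3a, a ubiquitin ligase that is maternally expressed in neurons only. Snrpn fell in 5 comparisons, from 182 and 175 to 159 and 152 CPM in Rybp-/- (-0.20 ± 0.04 SE), from 211 and 205 to 128 and 128 in shRybp (-0.70 ± 0.05 SE, adjusted p = 6.68e-10), and by 0.28 to 0.46 on the log2 scale in shWdr5, TF-AA and phase disruption. In the libraries labelled rTRS DOX it stood at 127 and 127 against 145 and 135 CPM (-0.14 ± 0.07 SE, adjusted p = 0.113). Ndn (chr7:69493163-69494814, plus strand, mm9), which encodes the growth suppressor necdin, rose in 5. It went from 4.99 and 5.11 to 10.7 and 9.06 CPM in Rybp-/- (0.97 ± 0.11 SE, adjusted p = 1.45e-08), from 13.0 and 13.3 to 29.5 and 32.1 in shRybp (1.23 ± 0.09 SE, adjusted p = 1.45e-09) and from 6.40 and 6.23 to 14.7 and 12.0 with TF-AA (1.08 ± 0.16 SE, adjusted p = 1.34e-05). In shWdr5 it fell from 12.2 and 12.5 to 8.65 and 8.59 CPM (-0.52 ± 0.12 SE, adjusted p = 0.00056). Snrpn and Ndn, both paternally expressed, thus moved in opposite directions in Rybp-/-, shRybp, TF-AA and phase disruption and in the same direction in shWdr5.

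Peg12 rose most with phase disruption, from 1.38 and 1.93 to 6.93 and 5.65 CPM (1.92 ± 0.27 SE, adjusted p = 6.4e-07), and was called higher in Rybp-/- (0.86), shRybp (0.61) and shWdr5 (0.72) as well. The shRybp call was lost with DESeq2 and without shEV 1 or shRybp 1 (adjusted p up to 0.239). Magel2, a regulator of protein trafficking, rose in the libraries labelled rTRS DOX from 2.00 and 1.71 to 4.22 and 4.50 CPM (1.23 ± 0.23 SE, adjusted p = 0.000719) and with phase disruption from 2.27 and 1.87 to 4.14 and 4.37 (1.04 ± 0.28 SE, adjusted p = 0.00398), the latter call being lost with DESeq2 (0.0766). All 6 genes of the cluster were called with phase disruption, 5 higher and Snrpn lower. The calls of Ube3a (0.16), Mkrn3 (0.53) and Ndn (0.42) were lost with DESeq2, that of Ube3a also without WT.RYBP 1, WT.RYBP 2 or phase disruption 1 (adjusted p up to 0.348), that of Mkrn3 without WT.RYBP 1 or phase disruption 2 (up to 0.614) and that of Ndn without WT.RYBP 2 or phase disruption 2 (up to 0.0608). Magel2 was also called in Rybp-/- (0.64), a call lost with DESeq2 and without Rybp+/+ 1 or Rybp-/- 2 (up to 0.293). Ube3a changed by no more than 0.41 on the log2 scale in any comparison.

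The remaining 11 members lie in clusters of their own or in small ones. Grb10, which encodes an adaptor that dampens insulin signalling and is used from either parental copy depending on the tissue, fell in shWdr5 from 153 and 166 to 38.2 and 39.1 CPM (-2.05 ± 0.06 SE, adjusted p = 2.35e-18). This was the largest change of a member in that comparison. Grb10 also fell in shRybp, from 164 and 177 to 90.0 and 93.4 CPM (-0.89 ± 0.05 SE), and with TF-AA, from 481 and 495 to 246 and 253 (-0.97 ± 0.07 SE). It rose with phase disruption, from 152 and 159 to 243 and 234 CPM (0.61 ± 0.05 SE), and stood at 128 and 128 against 123 and 129 in Rybp-/- (0.02 ± 0.04 SE, adjusted p = 0.669). Of these comparisons only shRybp and shWdr5 share controls.

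Plagl1, a zinc finger regulator of other imprinted genes, rose in shRybp from 7.16 and 6.06 to 17.7 and 18.9 CPM (1.46 ± 0.12 SE, adjusted p = 6.28e-09) and in the libraries labelled rTRS DOX from 15.1 and 18.8 to 36.9 and 47.8 (1.32 ± 0.13 SE, adjusted p = 4.96e-06). It rose less in Rybp-/-, from 11.4 and 11.1 to 20.9 and 21.8 CPM (0.92 ± 0.08 SE), and fell with phase disruption, from 38.4 and 35.3 to 21.0 and 24.2 (-0.71 ± 0.10 SE). Mest, a hydrolase gene of the mesoderm, rose with phase disruption from 24.1 and 23.6 to 63.9 and 66.4 CPM (1.45 ± 0.08 SE, adjusted p = 4.72e-16) and fell in Tet.RYBP with DOX from 72.4 and 67.6 to 44.8 and 46.4 (-0.62 ± 0.08 SE, adjusted p = 1.99e-06). For both genes the groups were apart in every comparison named. Mest shares exon bases with Copg2 on the other strand.

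Nnat fell in Rybp-/- from 15.4 and 15.7 to 7.10 and 6.54 CPM (-1.19 ± 0.09 SE, adjusted p = 1.24e-12) and with TF-AA from 7.31 and 7.46 to 3.08 and 3.52 (-1.16 ± 0.20 SE, adjusted p = 9.73e-05). In the libraries labelled rTRS DOX it was higher, at 12.7 and 9.27 against 3.70 and 3.37 CPM (1.63 ± 0.18 SE, adjusted p = 1.11e-05). Blcap, the host of Nnat in its intron, changed by no more than 0.35 in any comparison. Zdbf2, which encodes a zinc finger protein and affects growth after birth, fell with TF-AA from 250 and 288 to 113 and 123 CPM (-1.19 ± 0.09 SE, adjusted p = 1.89e-10) and with phase disruption from 222 and 218 to 143 and 128 (-0.70 ± 0.05 SE). Impact, a regulator of translation, fell by 0.63 to 0.71 in shWdr5, TF-AA and phase disruption and rose by 0.41 in shRybp and 0.38 in rTRS DOX. Gnas, the gene of a stimulatory G protein subunit whose exons overlap antisense RNAs, fell by 0.54 to 0.93 in Rybp-/-, shRybp and shWdr5 and rose by 0.76 in rTRS DOX.

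Slc38a4, an amino acid transporter gene of the placenta, was called in 5 comparisons, from -0.64 in shWdr5 to 0.48 with phase disruption. Mcts2, a retrogene whose near-identical parent Mcts1 could share its reads, was called in 4, from -0.76 in shWdr5 to 0.81 with phase disruption, of which the rTRS DOX call (-0.44) was lost without rTRS NTC 1 or rTRS DOX 2 (adjusted p = 0.073 and 0.0644). Zrsr1, a splicing factor retrogene, rose by 0.48 in Rybp-/- and fell by 0.62 with phase disruption. In Tet.RYBP the calls of Slc38a4 (0.29) and Zdbf2 (-0.24) were lost without either DOX library (adjusted p from 0.102 to 0.316), so that Ascl2 and Mest were the members whose calls there stood without any 1 library.

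The loss of RYBP by deletion in R7.15 cells and its knockdown in R1 cells were compared directly with an interaction term. This came from a joint fit of both tables, so the differences can depart slightly from those of the separate fits. The response differed for 20 of the 36 members tested, where 40.5% of all genes differed. Among them Phlda2, Peg10 and Mest were called in opposite directions in the knockout and the knockdown, of which the shRybp calls of Peg10 and Mest were lost with library totals alone (adjusted p = 0.323 and 0.177). The line, the method and the depth of RYBP loss differ together between these groups and cannot be told apart, and 4-OHT was given to the Rybp-/- cells only. Phlda2 differed most significantly, with a log2 fold change of 0.44 in Rybp-/- and -1.19 in shRybp (difference 1.65 ± 0.08 SE, adjusted p = 2.96e-13). Igf2, Ascl2 and Sgce rose more in shRybp, by -2.16, -1.77 and -1.64 when the knockdown's change is taken from the knockout's. With library totals alone 23 members differed, 7 with the larger value in Rybp-/- and 16 in shRybp, against 8 and 12, and the share of all called genes with the larger value in Rybp-/- went from 54.9% to 34.3%.

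Genes that set or keep imprints were measured in the same libraries from a list of 13. In Rybp-/- 2 rose and 10 fell, and in shRybp also 2 rose and 10 fell, with median log2 fold changes of -0.20 and -0.35. As shares these are 15.4% higher and 76.9% lower in both, beside 22.8% and 22.7% of all genes in Rybp-/- and 26.8% and 26.0% in shRybp. The shares were 30.8% higher and 53.8% lower in shWdr5 (31.5% and 31.5% of all genes), 7.69% and 38.5% with TF-AA (14.4% and 16.1%), and 7.69% and 61.5% with phase disruption (16.1% and 17.0%). In Tet.RYBP they were 15.4% and 15.4% (3.63% and 2.39% of all genes), and in rTRS DOX 23.1% and 53.8% (23.0% and 20.4%). Zfp57, the reader of methylated imprints, stood at 84.4 and 79.7 against 189 and 182 CPM in rTRS DOX (-1.18 ± 0.07 SE, adjusted p = 2.6e-08) and fell from 400 and 372 to 256 and 265 in shRybp (-0.57 ± 0.05 SE), but rose from 125 and 125 to 145 and 145 in Rybp-/- (0.21 ± 0.04 SE). Dnmt3l, the cofactor of the enzymes that methylate imprints in the germ line, fell most with TF-AA, from 180 and 170 to 74.6 and 63.4 CPM (-1.34 ± 0.09 SE, adjusted p = 3.32e-11). Dnmt3b, a de novo DNA methyltransferase, fell from 497 and 503 to 322 and 318 CPM in Rybp-/- (-0.64 ± 0.03 SE) and rose with DOX in Tet.RYBP from 180 and 178 to 263 and 268 (0.57 ± 0.05 SE).

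A further 30 imprinted genes outside the 38 gave 10 higher and 7 lower of 26 tested in Rybp-/-, which is 38.5% and 26.9% beside 22.8% and 22.7% of all genes. In shRybp 10 of 23 were higher and 3 lower, 43.5% and 13.0% beside 26.8% and 26.0%, and in shWdr5 5 of 22 were higher and 5 lower, 22.7% each way beside 31.5%. With TF-AA 5 of 22 were higher and 2 lower (22.7% and 9.09%, beside 14.4% and 16.1%), and with phase disruption 2 of 23 higher and 5 lower (8.70% and 21.7%, beside 16.1% and 17.0%). In Tet.RYBP 1 of 21 was higher and 0 lower (4.76%, beside 3.63% of all genes), and in rTRS DOX 9 of 25 higher and 2 lower (36.0% and 8.00%, beside 23.0% and 20.4%). Cdkn1c, a maternally expressed inhibitor of the cell cycle in the Kcnq1 cluster, rose in Rybp-/- (0.81), shRybp (1.19), TF-AA (0.67), phase disruption (0.57) and rTRS DOX (0.68) and fell in shWdr5 (-0.37).

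Chromatin at the start sites was read from peak lists, that of RING1B in shEV from 1 sample and the others merged by the authors, so that shares are given without a test. H3K4me3, the mark of active and poised promoters, had a peak within 2.5 kb of a start site at 33 of the 37 members in Rybp+/+ and 32 in Rybp-/-, beside 49.7% and 49.6% of 37310 annotated genes. Rian, Mirg and Rtl1 had none in either list, and Asb4 had one in Rybp+/+ only. Usp29 had none at its annotated start, which belongs to a single piece of the gene in mm9, whereas the RefSeq promoter of Usp29 lies beside that of Peg3, inside H3K4me3 peaks of 27.1- and 34.5-fold that were counted for Peg3. H3K27ac, the mark of active promoters and enhancers, was found at 22 and 23 members, beside 38.4% and 40.9%, and WDR5 at 17 and 21, beside 32.0% and 33.7%. The strongest H3K4me3 peak of a member in Rybp+/+ was at Ube3a, at 66.1-fold over background.

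RING1B, the catalytic subunit of PRC1, had a peak at 19 members in shEV, beside 32.2% of all genes, and in the lists labelled Tet.Rybp.Stat3 at 26 without DOX and 21 with it, beside 38.4% and 29.3%. The strongest RING1B peaks in shEV stood at Dio3 (54.4-fold), Peg12 (51.3-fold), Gnas (44.8-fold), Igf2 (37.1-fold) and Dlk1 (34.1-fold), followed by Ascl2, Phlda2 and Grb10 at 32.9-, 31.8- and 31.4-fold. Meg3, Rian, Mirg, Rtl1, H19, Impact, Snrpn, Slc22a18 and Asb4 had no RING1B peak in any of the 3 lists, nor had Usp29 at its annotated start. The H3K27ac lists come from R7.15 cells, in which Meg3 was expressed, and the RING1B lists from shEV, in which it had 5 and 1 counts, and from another line, so the marks were not read in the same cells. Dlk1 and Dio3 had RING1B peaks in all 3 of the latter lists and no H3K27ac peak in the former, where Meg3 had peaks of 6.10- and 6.46-fold. Of the promoters printed above, that of Igf2r lay in RING1B peaks of 12.5-fold in shEV, that of Ndn of 17.1-fold, and that of Peg3 in none there.

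In shRybp 10 of the 18 tested members with a RING1B peak in shEV rose and 6 fell, beside 33.4% and 25.6% of all genes with such a peak. Of the 15 tested members without one, 5 rose and 3 fell, beside 17.7% and 26.5%. The members that rose with a peak were Igf2, Dlk1, Dio3, Ndn, Igf2r, Ascl2, Plagl1, Sgce, Zdbf2 and Peg12, and those that fell were Grb10, Phlda2, Gnas, Peg10, Mest and Ube3a, the last 3 of which lost the call with library totals alone (adjusted p from 0.177 to 0.396). Sgce and Peg10 share 1 peak between their start sites. The peak of Ube3a was weak, at 2.93-fold. At a −log10 q of at least 5, 17 members had a RING1B peak in shEV, beside 20.4% of all genes. The call of Peg12 was lost with DESeq2 (adjusted p = 0.0693).

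**Figure D5:**
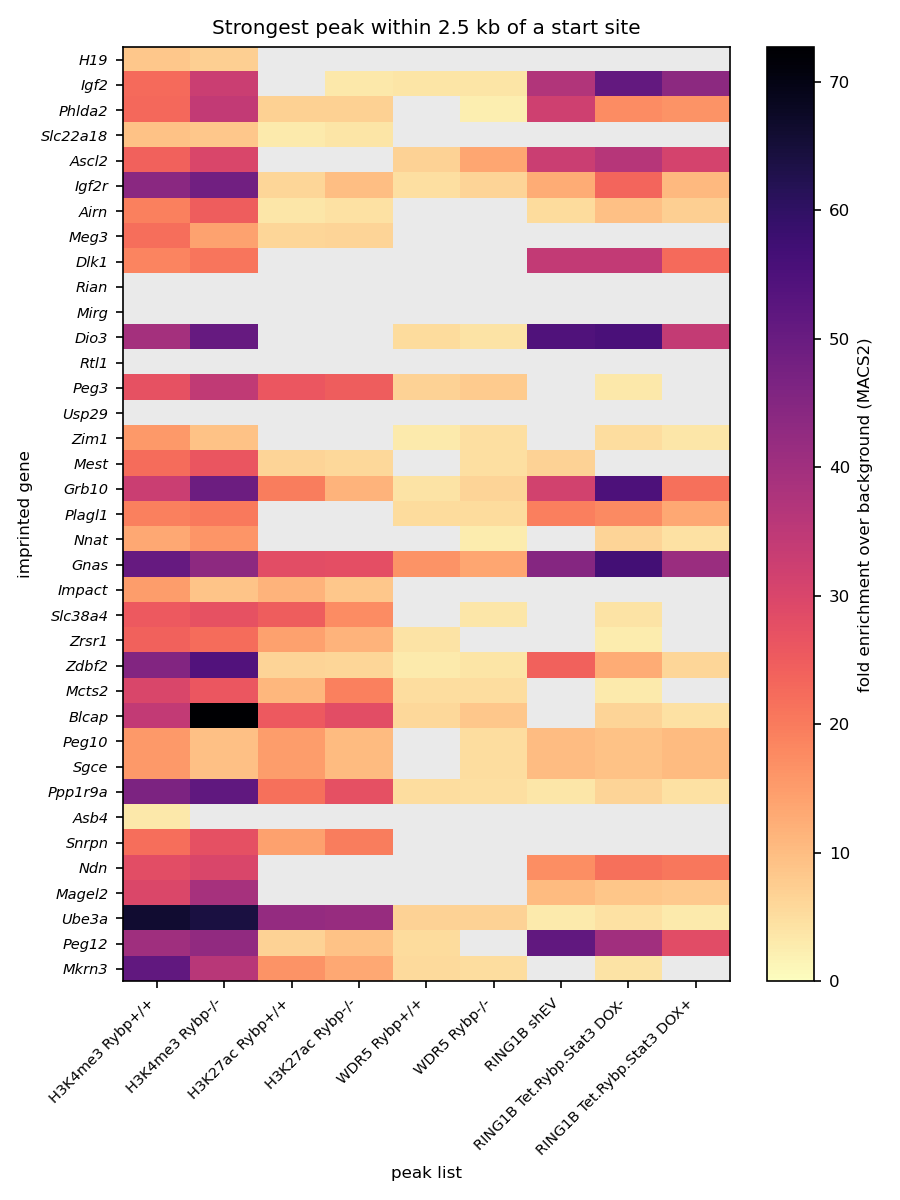
Heat map of the fold enrichment over background (colour, from MACS2) of the strongest peak within 2.5 kb of a start site of 37 imprinted genes (rows) in 9 peak lists (columns), grey where no peak was listed. In the RING1B shEV column Dio3, Peg12, Gnas, Igf2 and Dlk1 have the strongest peaks, from 54.4- to 34.1-fold, and Meg3, H19 and Snrpn are grey in all 3 RING1B columns.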

How the data were processed

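RNA-seq was analysed for 26 libraries in 7 deposited tables. Per the submitters' processing notes, reads were trimmed with Trim Galore and aligned to mm9 with STAR, and HTSeq was listed as the counter. The tables the authors deposited hold raw counts per gene, and the strand setting of the counting is not given in the sources used here. Rows for reads that were not unique, ambiguous or outside genes (4.51 to 19.0%, 2.46 to 3.22% and 4.26 to 8.46% of reads per table, with none in the Tet.RYBP table) were left out. The peak lists deposited by the authors give the fold enrichment and the −log10 q of each peak from MACS2.

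Genes with low counts were removed by filterByExpr, libraries scaled by TMM, and each table fitted on its own with edgeR 4.0.16 (R 4.3.3) by the quasi-likelihood test. P-values were adjusted by the Benjamini-Hochberg method over every tested gene, with calls at an adjusted p under 0.05. CPM are counts per 1000000 of the TMM-scaled library. RPKM used total gene counts and the same gene lengths for all groups, taken from a table that gives them, since the Tet.RYBP table has none. The knockout and the knockdown were compared by an interaction term. The common biological coefficient of variation lay between 0.038 and 0.084, and chi-square per degree of freedom between replicates between 2.1 and 13.1, so no library was counted as a duplicate. In the simulation of the Rybp-/- table, run on 16868 genes, 45 of 50 genes raised 2-fold, 41 of 50 lowered to 0.5, 50 of 50 raised 4-fold and 49 of 50 lowered to 0.25 were recovered. Recovery of genes lowered to 0.5 was least in the rTRS table, with 38 of 50 on 16220 genes. The simulation used the same fixed spread for every table, smaller than that found in the shRybp, TF-AA, Tet.RYBP and rTRS tables. Recovery in those may thus be overstated. Peaks were assigned to a gene within 2.5 kb of an annotated start site.

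The members and gene lists were chosen with earlier results of these data known. By the rule for named genes, values per library are given for up to 10 members a comparison that were called with a log2 fold change of at least 1 in size, for neighbours used from opposite parental copies where either was called, and for the 5 highest and lowest members at baseline. The alternatives were DESeq2 1.42.0, RLE in place of TMM scaling, no or a stricter filter, a fold threshold of 2, the replicate block and leaving out each library. For peaks they were other windows, the summit or midpoint inside the window and a −log10 q of 5. Library totals alone were added later. Tables were handled with Python 3.11.15, pandas 2.3.3 and scipy 1.17.1.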

Additional observations from a re-analysis of the deposited data

Results flagged for a closer look

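The responses to the knockout and to the knockdown of Rybp differed in edgeR's interaction test for 20 of the 36 members tested, where 40.5% of all genes differed. Each value estimates the log2 fold change in Rybp-/- minus that in shRybp. It comes from a joint fit of both tables and can depart slightly from the separate fits, in which Meg3 was not tested in shRybp. Line, method and table cannot be told apart. Phlda2 differed by 1.65, Grb10 by 0.936, Peg10 by 0.767, Mest by 0.561, Mcts2 by 0.548, Snrpn by 0.526, Slc38a4 by 0.316 and Ube3a by 0.297. The value was negative for Igf2 (-2.16), Meg3 (-1.91), Ascl2 (-1.77), Sgce (-1.64), Rian (-1.48), Nnat (-1.44), H19 (-1.02), Dlk1 (-0.837), Dio3 (-0.795), Plagl1 (-0.517), Ppp1r9a (-0.45) and Impact (-0.434).

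Meg3 rests on 5 and 1 counts in shEV against 18 and 7 in shRybp, and its difference was lost without shEV 2 or shRybp 1 (adjusted p = 0.13 and 0.234, edgeR). That of H19 was lost without shEV 1 (adjusted p = 0.107), and that of Ube3a with scaling by library totals alone (adjusted p = 0.11).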

How the results depend on the processing

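Only member changes called in the main fit were followed, 20 of them differences between knockout and knockdown. Alternatives in which the gene was not tested were left out. None of the changes followed was reversed. Of 1656 alternative values of 160 member fold changes, 1554 kept their call and 102 lost it, which touched 37 changes, 33 of them when 1 library was left out, and 22 values were lost under DESeq2. With a fold threshold of 2, the members called were 4 of 37 in Rybp-/- (7.84% of all genes), 10 of 33 in shRybp (12.6%), 5 of 31 in shWdr5 (18.6%), 10 of 34 with TF-AA (8.14%), 6 of 35 with phase disruption (6.77%), 1 of 33 in Tet.RYBP (0.904%) and 10 of 33 in rTRS DOX (12.0%), since smaller changes are then left out. In Tet.RYBP, leaving out 1 library gave between 2 and 9 members in place of 5: 8 and 9 without vehicle 1 and 2, and 2 without either DOX library, and the cause was not tested. The calls over all genes moved likewise, from 899 to 1566 and 1467 and to 406 and 409. A lone library left in a group is assumed to vary like the other group. With the replicate number as a block, 23, 24, 24, 25, 26, 6 and 22 members were called in the same order and 20 differed between knockout and knockdown, and no call was lost. Over all genes the block called 7724, 9110, 9865, 5525, 5172, 1211 and 8559, against 7720, 8721, 9547, 4412, 4814, 899 and 7070 without it. The numbers were taken to name libraries only, since the correlation of same-numbered deviations lay between -0.00076 and 0.15. The counts of members with a promoter peak stayed within 1.5 times under the other windows and the −log10 q of 5. The groups hold 2 libraries each, and genes with few counts, such as Airn, Zim1 and Mirg, could be tested in some tables only.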
